A study of Mus musculus with 4 samples.

Results

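MHC class II molecules carry peptides on the cell surface to CD4+ T cells, and 9 genes of that pathway were followed here across the leukocytes of a mouse pancreatic tumour. The genes were chosen by name, with earlier results of these data known: H2-Aa, H2-Ab1, H2-Eb1, H2-DMa, H2-DMb1, H2-DMb2, H2-Oa, Cd74 and Ciita, 9 of the 33696 genes in the count matrices. Subcutaneous tumours were grown in young adult male C57BL/6NHsd mice from KPC, a mouse pancreatic tumour line that all 4 groups shared. The groups were untreated tumours, tumours given an agonist of STING (ADU-S100, injected into the tumour), tumours of mice given an agonist of LTβR (an antibody that activates the lymphotoxin-beta receptor, injected intraperitoneally), and tumours of mice given both, called the combination. STING is a sensor of cyclic dinucleotides that starts a type I interferon response, and LTβR is a receptor that directs the building of lymphoid tissue. The tumours of several mice were pooled in each group, live CD45+ leukocytes were sorted, and 1 droplet library was made for each group. These libraries therefore had no replicates, a further single-cell experiment of the study was not analysed here, no test of a treatment was possible, and every interval below covers counting error only.

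H2-Aa and H2-Ab1 code for the alpha and beta chains of I-A, the class II molecule that C57BL/6 mice display. H2-Eb1 codes for the beta chain of I-E, which this strain does not display because its alpha chain gene is defective. Cd74 codes for the invariant chain, which fills the groove of new class II molecules until they reach endosomes. There H2-DM, a pair made of the H2-DMa product with the product of H2-DMb1 or H2-DMb2, removes the last piece of the invariant chain and helps peptides to bind. H2-O, made of the products of H2-Oa and H2-Ob, inhibits H2-DM and is known mainly from B cells, dendritic cells and thymus. Ciita codes for the coactivator that most class II transcription requires, and interferon-gamma induces it in macrophages. Dendritic cells and B cells express the pathway constitutively, macrophages and monocytes vary it with activation, and plasma cells shut Ciita down.

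On the GRCm38 build, 7 of the members lie together on chromosome 17 between H2-Oa, which starts at 34092340, and H2-Eb1, which ends at 34316674. Ciita lies on chromosome 16, from 10480059 to 10528418 on the plus strand. The promoters of class II genes share an X box and a Y box, short motifs that the factors recruiting Ciita bind, and the windows below show how far the members share these letters. They were read from RefSeq promoters of GRCm38.p6, 250 bases before to 50 bases after a gene's start, and 6 of the 9 members and the partner gene H2-Ob matched that table. Capitals mark the Y box letters TGATTGG and the X box core AACTGATG, both searched on either strand. Each line holds 60 bases placed around the Y box letters of a promoter that holds them, 5′ to 3′ on the gene's strand.
H2-Aa, chr17:34287864-34287923, minus strand: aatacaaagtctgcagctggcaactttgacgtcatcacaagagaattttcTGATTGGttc
H2-Eb1, chr17:34305756-34305815, plus strand: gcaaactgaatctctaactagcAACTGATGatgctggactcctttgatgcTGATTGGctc
H2-DMb1, chr17:34153078-34153137, plus strand: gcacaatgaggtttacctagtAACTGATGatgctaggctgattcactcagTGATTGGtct
H2-DMb2, chr17:34145107-34145166, plus strand: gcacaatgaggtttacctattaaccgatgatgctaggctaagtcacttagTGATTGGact
H2-Oa, chr17:34092284-34092343, plus strand: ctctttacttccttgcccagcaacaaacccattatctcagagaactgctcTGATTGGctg
H2-Ob, chr17:34238796-34238855, plus strand: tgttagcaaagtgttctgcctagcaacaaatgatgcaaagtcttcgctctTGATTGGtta
Of the 6 members that matched, 5 had the Y box letters in their promoter, as H2-Ob did, and the promoters of H2-DMa held neither run of letters. Among all 32851 promoters 2568 held the Y box letters (7.82%). H2-Eb1 and H2-DMb1 also held the X box core, which 255 promoters held (0.776%). The windows of H2-DMb1 and H2-DMb2 differ at 6 of 60 letters. These paralogs are also alike in their transcripts, where 209 of 1315 runs of 90 bases in the longest H2-DMb1 transcript (15.9%) occur in that of H2-DMb2. Reads from shared stretches cannot be assigned to either gene, so the levels of both are uncertain.

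The libraries held 8730 (untreated), 15404 (STING agonist), 14634 (LTβR agonist) and 16322 (combination) cell barcodes, with 62248447, 85855398, 73704334 and 52109958 unique molecular identifiers (UMIs), the molecules counted. The median UMI count per cell was lowest in the combination library, at 2157.5 against 4712 in the untreated one, and pairs of libraries shared 34 to 83 barcodes. After the study's limits and removal of likely doublets, 48858 cells remained, 48036 of them leukocytes and the rest in a carcinoma-like cluster. They were clustered without the 9 members, and clusters were named from marker genes, so that the class of a cell does not rest on the genes described. Macrophage-like cells numbered 2133, 2627, 3038 and 3490 in the untreated, STING agonist, LTβR agonist and combination libraries, the order used throughout, and monocyte-like cells 1213, 2343, 3529 and 3488. The dendritic cell-like (DC-like) clusters were of 4 kinds: type 1 (126, 50, 82 and 103 cells), type 2 (268, 199, 404 and 460), mature (184, 180, 189 and 193) and plasmacytoid (77, 73, 125 and 40). B-like cells were too few to describe in the untreated and STING agonist libraries, with 4, 8, 119 and 185 cells, and plasma-like cells numbered 99, 60, 410 and 838. Every marker of the macrophage, monocyte, DC and plasma lists had UMIs in the cells named from it in all 4 libraries, and all 11 B markers did in the LTβR agonist and combination libraries.

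Levels are in CPM, the sequencing unit that scales the UMIs of a gene to the total UMIs of its class in a library, with exact Poisson 95% intervals. Since genes differ in length and in how well the kit captures them, levels are compared between cells for one gene, not between genes. A member was counted as higher or lower in a comparison when its CPM differed by more than 1.5-fold and it had at least 200 UMIs over both libraries. The share of all genes with as many UMIs that passed the same fold is given beside the first count of members in each comparison. The 3 comparisons with the untreated library share that library, and so do not stand for each other.

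Each of the 9 members was higher in type 2 DC-like than in macrophage-like cells in all 4 libraries, and plasma-like cells held the least H2-Aa of the antigen-presenting lineages. H2-Aa in type 2 DC-like cells was 8745 (8620.3 to 8871), 10208 (10059.6 to 10357), 9056 (8944 to 9169) and 9214 (9079 to 9350.1) CPM, against 5663 (5628 to 5698), 4603 (4573 to 4633), 5546 (5512 to 5579.7) and 7548 (7505 to 7592) in macrophage-like cells. The ratio was therefore largest in the STING agonist library and smallest in the combination library, at 1.54, 2.22, 1.63 and 1.22-fold. Cd74 stood closer between these classes, at 18302, 19738, 19391 and 20571 CPM in type 2 DC-like and 14358, 11914, 14272 and 19306 CPM in macrophage-like cells. H2-DMb1 was nearly level in the combination library, where the ratio of type 2 DC-like to macrophage-like cells was 1.06 with a 95% interval from 0.983 to 1.14. When cells with 0.1% or more of their UMIs in macrophage markers were left out of the type 2 DC-like class (66, 33, 154 and 223 cells), Cd74 was 17681, 19384, 17779 and 17642 CPM and H2-DMb1 419.7, 526, 396 and 311 CPM. In the combination library both were then below macrophage-like cells, where H2-DMb1 was 374 CPM, and the other members stayed above in each library. Over DC-like cells of all 4 kinds together, 6 of the 9 members were above macrophage-like cells in every library, and 3 of 9 when cells holding macrophage markers were left out of the DC-like cells.

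Between type 2 DC-like and macrophage-like cells, H2-Oa, H2-DMb2 and Ciita differed more than the chains did. H2-Oa, the inhibitory partner of H2-Ob, was 20.8, 46.4, 25.8 and 9.38 times as high in type 2 DC-like as in macrophage-like cells. H2-DMb2 was 10.3, 16.5, 8.28 and 4.37 times as high, and Ciita 3.73, 6.05, 3.48 and 2.77 times. In macrophage-like cells H2-Oa was 8.22 (6.94 to 9.66), 3.73 (2.93 to 4.68), 6.79 (5.65 to 8.09) and 14.8 (12.9 to 16.8) CPM, on 147, 74, 125 and 226 UMIs. A few cells carried much of this. When clusters were cut at doubled resolution, 37, 9, 24 and 39 of the macrophage-like cells fell into DC-like clusters, and these cells held 71, 15, 25 and 42 of the H2-Oa UMIs. Without them, a choice made after seeing the data, H2-Oa in macrophage-like cells was 4.35 (3.43 to 5.44), 2.99 (2.28 to 3.86), 5.49 (4.47 to 6.68) and 12.3 (10.6 to 14.2) CPM, and type 2 DC-like cells were 39.3, 57.8, 31.9 and 11.3 times as high. For H2-DMb2 the folds were then 12.6, 17.5, 8.55 and 4.68 and for Ciita 3.88, 6.14, 3.54 and 2.83. T-like cells gave 6.03 (4.18 to 8.42), 11.1 (7.35 to 16), 10.5 (8.15 to 13.2) and 11.6 (8.25 to 15.9) CPM and neutrophil-like cells 0, 0.982, 1.13 and 1.32 CPM, so the intervals of macrophage-like and T-like cells overlapped in the untreated and combination libraries, and T-like cells were above in the others. For the chains and Ciita the levels of T-like cells, which are not professional antigen-presenting cells, were far lower than those of macrophage-like cells: H2-Aa was 119, 85.7, 186 and 270.3 CPM, Cd74 389, 214, 504 and 752 CPM and Ciita 8.33, 8.69, 9.11 and 12.5 CPM in T-like cells.

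**Figure D1:**
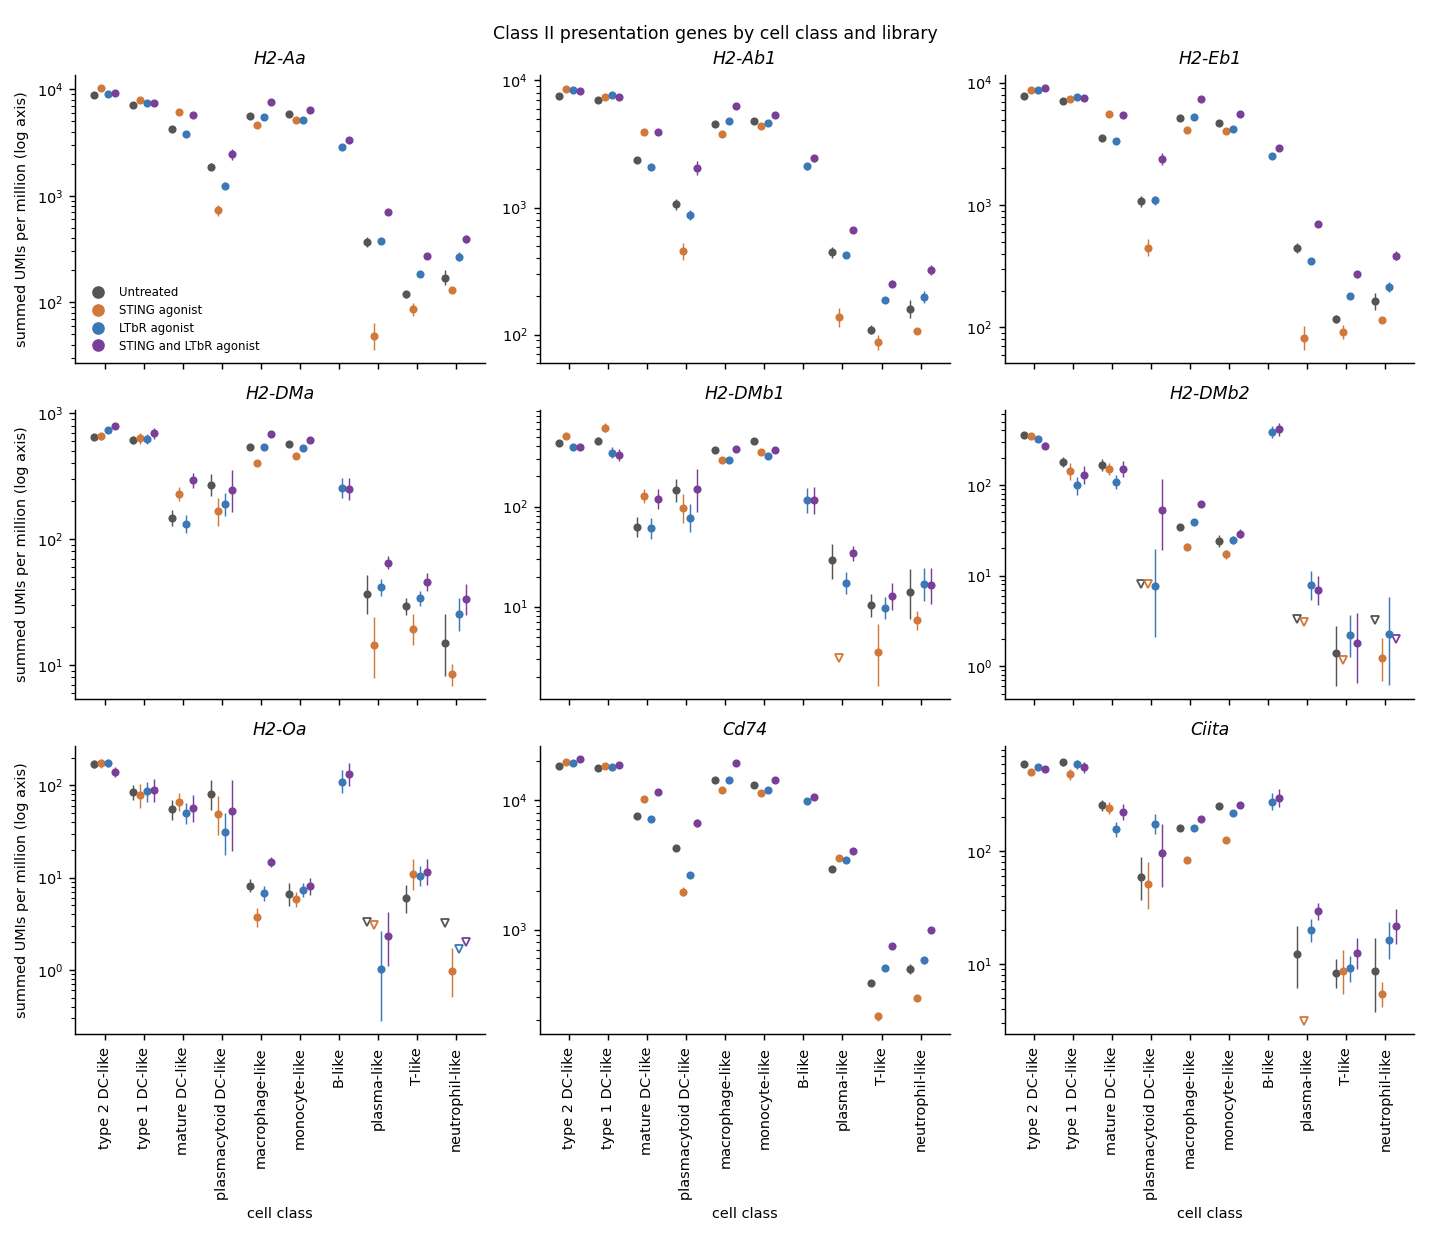
Level of each of the 9 members (one panel per gene) in CPM on a log axis, for each cell class and each of the 4 libraries, with exact Poisson 95% intervals as bars. Open triangles mark the 3-UMI floor of a class with 3 UMIs or fewer, and classes under 30 cells in a library are left out. Type 2 DC-like cells stand highest or near the top in most panels, T-like cells near the bottom, and type 2 DC-like cells stand farthest above macrophage-like cells for H2-Oa, H2-DMb2 and Ciita.

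In macrophage-like cells the STING agonist library held the lowest level of 8 of the 9 members and the combination library the highest of all 9. Ciita was 161 (155 to 167), 83.5 (79.5 to 87.6), 162 (156 to 168) and 193 (186 to 200.2) CPM, so the intervals of the untreated and LTβR agonist libraries overlapped and the STING agonist library stood alone at the bottom. Against the untreated library the STING agonist ratio was 0.518 (95% interval 0.488 to 0.551). H2-Aa was lower in the STING agonist library too, but by less, with a ratio of 0.813 (95% interval 0.806 to 0.820). H2-Ab1 was 4556, 3784, 4787 and 6339.8 CPM and H2-Eb1 5152, 4098, 5244 and 7346 CPM. For both, the LTβR agonist library was near the untreated one and the combination library was above it.

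Read over all 9 members, 3 were lower and 0 higher in STING agonist than in untreated macrophage-like cells, where 6.65% of all genes tested were lower. The 3 were Ciita, H2-DMb2 at 0.602 (95% interval 0.530 to 0.683) and H2-Oa at 0.454 (95% interval 0.339 to 0.605). Without the cells that fell into DC-like clusters at doubled resolution, Ciita alone passed. H2-DMb2 was then -0.52 and H2-Oa -0.54 on the log2 scale, the latter on 76 and 59 UMIs. The members' median log2 ratio was -0.33, beside -0.15 over all genes tested. In LTβR agonist against untreated, 0 members passed in either direction (3.85% of all genes did), and their ratios ran from 0.796 for H2-DMb1 to 1.12 for H2-DMb2. In combination against untreated, 2 were higher (3.41% of all genes), H2-DMb2 at 1.78 (95% interval 1.61 to 1.97) and H2-Oa at 1.80 (95% interval 1.45 to 2.23), and the members' median log2 ratio was 0.43 beside -0.07 over all genes. Without the cells named DC-like at doubled resolution both ratios were larger, that of H2-DMb2 at 1.03 on the log2 scale and that of H2-Oa from levels of 4.35 and 12.3 CPM. Under other alternatives the count was smaller than 2: without doublet removal, at doubled resolution, with cells named by their own markers and with the T-like level subtracted.

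The largest median ratio in these cells was between the combination and the STING agonist alone (0.76 on the log2 scale), where 8 of 9 members were higher and 5.54% of all genes tested were. Ciita was 2.31 (95% interval 2.18 to 2.46) times as high in the combination. The ratios of the chains were 1.64 for H2-Aa, 1.68 for H2-Ab1 and 1.79 for H2-Eb1, and that of the invariant chain gene Cd74 was 1.62. H2-DMb1 was the member that did not pass, at 1.27 (95% interval 1.23 to 1.32), while H2-DMa reached 1.69 and H2-DMb2 2.96 (95% interval 2.63 to 3.33). Against the LTβR agonist alone 2 members were higher (1.1% of all genes), H2-DMb2 and H2-Oa, and the ratio of H2-Aa was 1.36 (95% interval 1.35 to 1.37). H2-DMb2 fell short of 1.5-fold without doublet removal (0.55 on the log2 scale) and with matched clusters (0.40). H2-Oa had too few UMIs to be tested without doublet removal, at doubled resolution and with cells named by their own markers.

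The clusters that make up the macrophage-like class carried unlike levels and took unlike shares of it. A cluster with the complement genes C1qa and C1qc and the lipid carrier gene Apoe among its 10 leading genes held 57.1, 39.6, 36.3 and 56.8% of macrophage-like cells, with H2-Aa at 6318, 6094, 6339 and 8842 CPM. A cluster with Gpnmb and Mmp12 among its 10 leading genes held 12.7, 31.9, 21.6 and 18.9%, with H2-Aa at 2424, 2020.4, 2964 and 3438 CPM. H2-Aa in the first of these was therefore nearly level between the untreated and STING agonist libraries, and the cluster with low H2-Aa had its largest share in the STING agonist library. When the clusters were given the shares of the other library, the log2 ratio of H2-Aa between STING agonist and untreated moved from -0.30 to -0.07.

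Ciita also differed within clusters, and the STING agonist library was not lowest in all of them. No intervals were computed for these clusters. It was 167, 103, 168 and 219 CPM in the C1qa cluster and 51.4, 22.6, 51 and 66.5 CPM in the Gpnmb cluster, lowest in the STING agonist library in each. In a cluster of cell division genes, Plk1 and Ccna2 among its 10 leading ones, Ciita was 179, 94.1, 133 and 193 CPM, again lowest in the STING agonist library. This cluster held most of the cells named DC-like at doubled resolution. The nearest cluster of that finer cut was without them but took in other cells. It had 259, 156, 231 and 281 macrophage-like cells, against 219, 131, 211 and 262. Ciita was 113, 76.4, 109.8 and 150.5 CPM there, so leaving out the DC-like cells is not the only change. In a cluster led by Pf4 and Fabp5, with a median of 891 UMIs per cell, Ciita was 53.2, 75.9, 67.1 and 145 CPM. Its untreated part was 171 shallow cells, so few Ciita UMIs lie behind the 53.2 CPM. Whether the untreated level lay below that of the STING agonist library is therefore uncertain. That cluster held 8.02, 16, 11 and 8.34% of macrophage-like cells. In a cluster with Cd163 and Folr2, genes of tissue-resident macrophages, among its 10 leading genes, Ciita was 256, 257, 307 and 302 CPM, with no lower level in the STING agonist library. The call for H2-DMb2 in STING agonist against untreated was lost without doublet removal (-0.42 on the log2 scale) and at doubled resolution (-0.32), while Ciita stayed past 1.5-fold in both. With the shares of clusters matched, the STING agonist ratio of Ciita was -0.60 on the log2 scale, and -0.53 with clusters at doubled resolution, which is short of 1.5-fold. Under that finer matching 0 of 9 members passed 1.5-fold in STING agonist against untreated, and 4 of 9 did in combination against STING agonist, with Ciita at 1.06.

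In monocyte-like cells too, Ciita was lowest in the STING agonist library, with 253 (242 to 264), 127 (122 to 132), 219.6 (213 to 227) and 256 (246 to 266) CPM. The STING agonist ratio to untreated was 0.503 (95% interval 0.474 to 0.534). The LTβR agonist library lay below the untreated one with intervals apart, unlike in macrophage-like cells, and the intervals of the untreated and combination libraries overlapped. Ciita was the single member past 1.5-fold of 8 tested in that comparison (7.47% of all genes were lower). H2-Aa was 5864, 5193, 5155 and 6322 CPM, and Cd74 13108, 11351, 11882 and 14204 CPM. In combination against STING agonist 2 of 9 members were higher (5.22% of all genes), Ciita at 2.01 (95% interval 1.90 to 2.12) and H2-DMb2 at 1.69 (95% interval 1.45 to 1.98). Neither passed when clusters at doubled resolution were given matched shares, and the count was smaller when clusters were named again at doubled resolution.

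No member passed in the other comparisons of monocyte-like cells, where 3.75% (LTβR agonist against untreated), 3.77% (combination against untreated) and 1.22% (combination against LTβR agonist) of all genes passed in either direction. A monocyte-like cluster led by the interferon-induced chemokine genes Cxcl10 and Cxcl11 held 51.9, 71.8, 55.3 and 44.2% of the class, with Ciita at 223, 107, 169 and 174 CPM. The other cluster was led by Adgre4, Sirpd and Arhgef37, with Chil3, Vcan and Ccr2 also among its 10 leading genes. Its Ciita was 293, 203, 294 and 340.5 CPM. The STING agonist library was lowest in each. At doubled resolution, a cluster with Il6 and Lif among its 10 leading genes held 17.3, 50.1, 27 and 20.7% of the class. Its Ciita was 122, 65.7, 118 and 108 CPM. A cluster with Cxcl9, Cxcl10 and Cxcl11 among its leading genes held 24.4, 14.9, 14.8 and 16%. One led by Cmpk2 and Ifit genes held 7.17, 4.23, 10 and 4.96%. With clusters at doubled resolution given matched shares, the log2 ratio of Ciita between STING agonist and untreated was -0.33, and that of H2-Aa changed sign to 0.20.

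**Figure D2:**
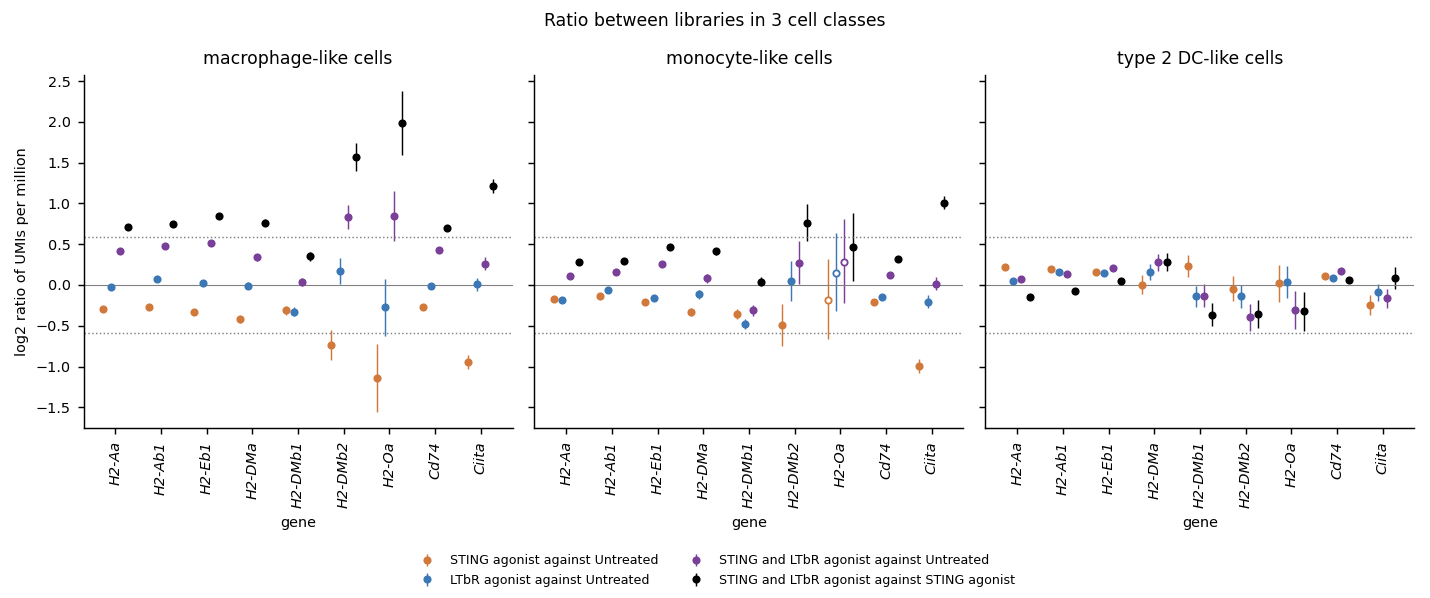
Log2 ratio of the CPM of each member in macrophage-like, monocyte-like and type 2 DC-like cells, with 95% intervals for counting error. The STING agonist, LTβR agonist and combination libraries are set against untreated, and the combination against STING agonist. Combination against LTβR agonist is not drawn. Open points have under 200 UMIs and dotted lines mark 1.5-fold. In macrophage-like cells 8 of 9 members lie above the upper line in combination against STING agonist, and in type 2 DC-like cells no member leaves the band.

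Type 2 DC-like cells differed little between the libraries. Ciita was 600.2 (568 to 634), 505 (472 to 539), 563 (536 to 592) and 535 (503 to 569) CPM and H2-Oa 171, 173, 175 and 138 CPM. Of the 9 members, 0 passed 1.5-fold in any of the 5 comparisons, beside 6.8% of all genes in STING agonist against untreated, 3.93% in LTβR agonist against untreated, 6.69% in combination against untreated, 7.09% in combination against STING agonist and 2.4% in combination against LTβR agonist. The STING agonist ratio of Ciita was 0.841 (95% interval 0.771 to 0.917), an interval that holds neither 1 nor the 0.518 of macrophage-like cells. The lowest ratio against untreated was that of H2-DMb2 in the combination, at 0.759 (95% interval 0.678 to 0.849). The count of 0 depends on which cells enter the class. One alternative concerns an unnamed cluster led by Retnla, which passed 4 of 7 type 2 DC markers but did not have the DC receptor gene Flt3 2-fold above other cells, which a DC name required. With its cells counted as type 2 DC-like, an alternative chosen after seeing the data, H2-Oa was past 1.5-fold lower in combination against untreated (-0.65 on the log2 scale) and against STING agonist (-0.76). H2-DMb2 was too in combination against STING agonist (-0.61). Without the cells holding macrophage markers, H2-DMb1 was past 1.5-fold lower in combination against STING agonist, at -0.76 on 787 and 284 UMIs in the STING agonist and combination libraries.

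Type 1 DC-like cells, the kind known for presenting to CD8+ T cells, held H2-Aa at 7093, 8005, 7480.1 and 7411 CPM and Ciita at 619, 484, 592 and 559 CPM. Of 8 members tested, 1 was lower in LTβR agonist than in untreated (2.54% of all genes), H2-DMb2 at 0.553 (95% interval 0.422 to 0.719). Of 7 tested, 1 was lower in combination than in STING agonist (4.05% of all genes), H2-DMb1 at 0.536 (95% interval 0.447 to 0.641). In the other comparisons 0 passed, beside 9.14% (STING agonist against untreated), 4.88% (combination against untreated) and 4.37% (combination against LTβR agonist) of all genes in either direction. The genes called are both members of the paralog pair whose reads can be confused, and the type held 50 to 126 cells a library.

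Mature DC-like cells, which carry the migration and maturation genes of DCs on their way to lymphoid tissue, had less of all 9 members than type 2 DC-like cells in every library. H2-Ab1 was 2388 (2300.2 to 2477), 3959 (3844 to 4076), 2098 (2016 to 2183) and 3955 (3806 to 4109.6) CPM, and the STING agonist and combination libraries stood together above the other two. H2-DMb1 was 62.7 (49.2 to 78.7), 129 (109 to 152), 61.3 (48 to 77.2) and 120.4 (95.4 to 149.8) CPM, with the same split, and Cd74 was 7523, 10132, 7138 and 11422 CPM. In STING agonist against untreated 4 of 8 members tested were higher (9.42% of all genes), namely H2-Ab1 at 1.66 (95% interval 1.58 to 1.74), H2-Eb1 at 1.55, H2-DMa at 1.54 and H2-DMb1 at 2.06 (95% interval 1.54 to 2.76). In combination against untreated 4 of 7 were higher (7.01%), with ratios of 1.66 for H2-Ab1, 1.54 for H2-Eb1, 1.98 for H2-DMa and 1.52 for Cd74, and in combination against LTβR agonist 5 of 7 (5.35%).

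Ciita did not share that split in mature DC-like cells. It was 257 (229 to 288), 242 (214 to 272), 157 (135 to 181) and 226 (191 to 265) CPM, lowest in the LTβR agonist library, with a ratio to untreated of 0.609 (95% interval 0.504 to 0.733). H2-DMb2 was the other of 2 members lower of 7 tested in that comparison, at 0.648 (95% interval 0.514 to 0.814) (1.67% of all genes). Both calls were lost without doublet removal, and the count was smaller with cells weighted equally. In combination against STING agonist 0 of 8 passed (10% of all genes in either direction). Macrophage genes moved with the higher chains: the 14 macrophage markers summed to 273, 986, 328 and 1994 CPM in mature DC-like cells, all 14 with UMIs except Pf4 at 0 in the LTβR agonist library. When cells with 0.1% or more of their UMIs in those markers were left out (12, 29, 15 and 55 cells), H2-Ab1 was 2363, 3420.1, 2083 and 2959 CPM and Cd74 7537, 9099, 7106 and 8733 CPM. Among the members tested before, the counts higher were then 1 in STING agonist against untreated, 0 in combination against untreated and 0 in combination against LTβR agonist. The 1 was H2-DMb1, which in the remaining cells had 70 and 102 UMIs in the untreated and STING agonist libraries, so that 0 passed with 200 UMIs asked of those cells.

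**Figure D3:**
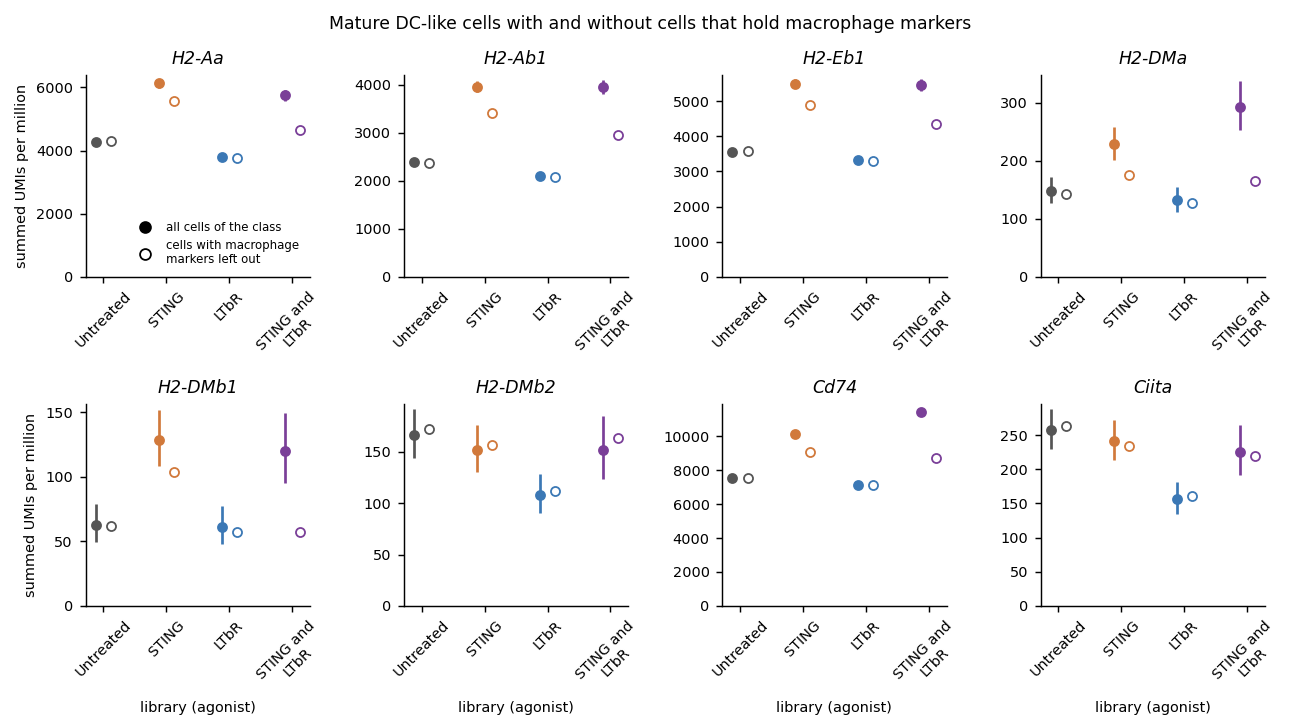
CPM of 8 members in mature DC-like cells of the 4 libraries, with 95% intervals, for all cells (filled) and without cells that hold 0.1% or more of their UMIs in macrophage markers (open). The filled points of H2-Ab1 in the STING agonist and combination libraries, 3959 and 3955 CPM, come down to 3420 and 2959 CPM when those cells are left out, and Ciita is lowest in the LTβR agonist library either way.

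Plasmacytoid DC-like cells, the specialised producers of type I interferon, had less of all 9 members than type 2 DC-like cells in every library. H2-Aa was 1879.6 (1743 to 2024), 729.9 (646 to 822), 1248 (1154 to 1348) and 2452 (2172 to 2757) CPM, lowest in the STING agonist library and highest in the combination, which held few such cells. In STING agonist against untreated all 4 members tested were lower (4.64% of all genes), with ratios of 0.388 for H2-Aa, 0.427 for H2-Ab1, 0.420 for H2-Eb1 and 0.457 for Cd74. In LTβR agonist against untreated 2 of 5 were lower (24.2%), H2-Aa and Cd74. Both turned to higher when each cell was named by its own markers (0.16 and 0.19 on the log2 scale). Of all genes tested there, 49.3% passed in either direction. At doubled resolution the plasmacytoid DC name went to a cluster with 9 of 9 markers (73, 62, 60 and 29 cells). It also went to one with 3 of 9, led by Adamts3 and Taco1 (9, 1, 65 and 11 cells), whose levels were not examined apart. In the combination, with its 40 cells, 3 of 4 were higher than in untreated (9.68%), 4 of 4 than in STING agonist (6%) and 4 of 4 than in LTβR agonist (6.95%). Macrophage markers summed to 2002, 1735, 2795 and 4718 CPM in these cells, likewise lowest in the STING agonist library and highest in the combination. Without cells holding 0.1% or more of macrophage markers (17, 17, 68 and 14 cells), H2-Aa was 1444, 727, 927 and 1227 CPM, so the combination no longer stood above the untreated library and the STING agonist library was still lowest. In LTβR agonist against untreated 1 member, H2-Aa, was then lower rather than 2. H2-Ab1 was 713, 470.3, 553 and 409 CPM, lowest in the combination, H2-Eb1 657, 395, 507 and 896 CPM and Cd74 3567, 2128, 2654 and 3564 CPM. The combination kept 26 such cells, under the 30 asked of a class, so no counts were made for it there.

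B-like cells could be described in the LTβR agonist and combination libraries, and their levels were close. H2-Aa was 2878 (2724 to 3038) and 3334 (3155 to 3521) CPM, Cd74 9818 and 10538 CPM and Ciita 277 (231 to 329.9) and 300.1 (248 to 359.9) CPM. Of 7 members tested 0 passed 1.5-fold in combination against LTβR agonist (3.32% of all genes did), and the ratios of the 9 members ran from 0.984 to 1.2. The inhibitor was higher in these cells than in macrophage-like cells, with H2-Oa at 109.9 and 132 CPM and its partner H2-Ob at 345 and 336 CPM, while H2-Aa was lower. In all, 3 members were higher and 6 lower in B-like than in macrophage-like cells in both libraries. Among the B-like subclusters H2-Oa differed, at 88.9 CPM in the larger (189 cells) and 208 CPM in the smaller (127 cells).

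Plasma-like cells held every member below B-like cells in both libraries. Ciita was 12.2, 2.06, 19.96 and 29.3 CPM and H2-Aa 367, 48.5, 377 and 699.5 CPM, and H2-Oa had 0, 0, 4 and 10 UMIs in all. A count of 0 allows up to 3.34 and 3.10 CPM in the untreated and STING agonist libraries. Cd74 stayed high beside the chains, at 2926, 3560.2, 3421 and 4048 CPM. In combination against LTβR agonist 5 of 7 members tested were higher (5.4% of all genes), with H2-Aa at 1.86 (95% interval 1.74 to 1.98) and Cd74, which did not pass, at 1.18 (95% interval 1.16 to 1.21).

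Against the untreated library, 3 of 4 members tested were lower with the STING agonist (21.8% of all genes), 0 of 4 passed with the LTβR agonist (11.6% in either direction), and 3 of 5 were higher with the combination (8.54%). Combination against STING agonist gave 4 of 5 higher (27.1%). The STING agonist library held 60 plasma-like cells. With each cell named by its own markers, H2-Aa (0.28 on the log2 scale) and H2-Ab1 (0.17) turned to higher with the STING agonist. Levels and macrophage markers both differed between the subclusters of this class. In the largest, of 395 cells, the markers summed to 399 CPM and H2-Aa was 159.9 CPM. In the subclusters of 380, 186 and 123 cells, macrophage markers summed to 74.3, 92.4 and 86.9 CPM and H2-Aa was 46.2, 57.6 and 101 CPM. In those of 65 and 29 cells, the markers summed to 233 and 1119 CPM and H2-Aa was 287 and 838 CPM. In the subclusters of 216 and 13 cells, those markers summed to 6389 and 4169.8 CPM and H2-Aa was 2420.2 and 1516 CPM. Without the latter, H2-Aa in plasma-like cells was 54.8, 28.6, 71.6 and 147 CPM and Ciita 1.27, 2.29, 2.14 and 7.20 CPM. Of the 7 members tested before, 3 rather than 5 then passed in combination against LTβR agonist, and only H2-Aa of these 3 had 200 UMIs in the remaining cells. H2-DMb1 had 9 and 17 and Ciita 7 and 25 UMIs in the LTβR agonist and combination libraries. In STING agonist against untreated H2-Ab1 was 144 and 121 CPM in the untreated and STING agonist libraries and H2-Eb1 102 and 78.8 CPM, neither past 1.5-fold any longer. H2-Aa was past 1.5-fold lower in these cells, but on 43 and 25 UMIs, and Cd74 was past 1.5-fold higher with the STING agonist, at 2246 and 3747 CPM.

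Ratios of 2 members within the same cells do not depend on the class total and set the classes apart. H2-DMb2 had 3.28 (2.40 to 4.55) and 3.53 (2.52 to 5.04) UMIs per UMI of H2-DMb1 in B-like cells of the LTβR agonist and combination libraries. In type 2 DC-like cells the same ratio was 0.821, 0.675, 0.820 and 0.681, in macrophage-like cells 0.0953, 0.0712, 0.135 and 0.165 and in monocyte-like cells 0.0533, 0.0484, 0.0769 and 0.0797. Plasmacytoid DC-like cells had 1, 2, 4 and 6 UMIs of H2-DMb2 and 55, 36, 40 and 17 of H2-DMb1, too few to place them against monocyte-like cells. Mature DC-like cells stood between B-like and type 2 DC-like cells, at 2.66, 1.18, 1.76 and 1.26. Without the cells holding macrophage markers this ratio was 2.80, 1.51, 1.97 and 2.86, so the combination library moved from near the STING agonist library to near the untreated one. When all cells of each class were counted, H2-DM beta chain UMIs thus came mostly from H2-DMb2 in B-like and mature DC-like cells. They came mostly from H2-DMb1 in macrophage-like, monocyte-like and type 2 DC-like cells. This holds for UMIs counted, not for transcripts present, since paralogs are hard to count and genes differ in capture. Without the cells holding macrophage markers, the ratio in type 2 DC-like cells of the combination library was 1.06, and it was below 1 in the other libraries.

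The inhibitor gene H2-Oa, set against the H2-DMa it opposes, followed a similar order, apart from plasmacytoid DC-like cells. Per UMI of H2-DMa there were 0.431 and 0.526 UMIs of H2-Oa in B-like cells, 0.371, 0.290, 0.381 and 0.195 in mature DC-like cells and 0.261, 0.264, 0.240 and 0.175 in type 2 DC-like cells. Type 1 DC-like cells had 0.137, 0.123, 0.138 and 0.127, and macrophage-like cells 0.0152, 0.00924, 0.0126 and 0.0216. Plasmacytoid DC-like cells without those holding macrophage markers had 0.320 (0.193 to 0.513), 0.283 and 0.294 in the untreated, STING agonist and LTβR agonist libraries. These rest on 24, 17 and 15 UMIs of H2-Oa and lie above type 1 DC-like cells, although H2-DMb2 per H2-DMb1 was low. The combination library was lowest in type 2 DC-like cells, where the intervals of the other libraries overlapped, and it stayed lowest without the cells holding macrophage markers, at 0.312, 0.290, 0.340 and 0.234. In mature DC-like cells it was lowest with those cells and not without them, when the 4 libraries were at 0.391, 0.360, 0.406 and 0.420.

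**Figure D4:**
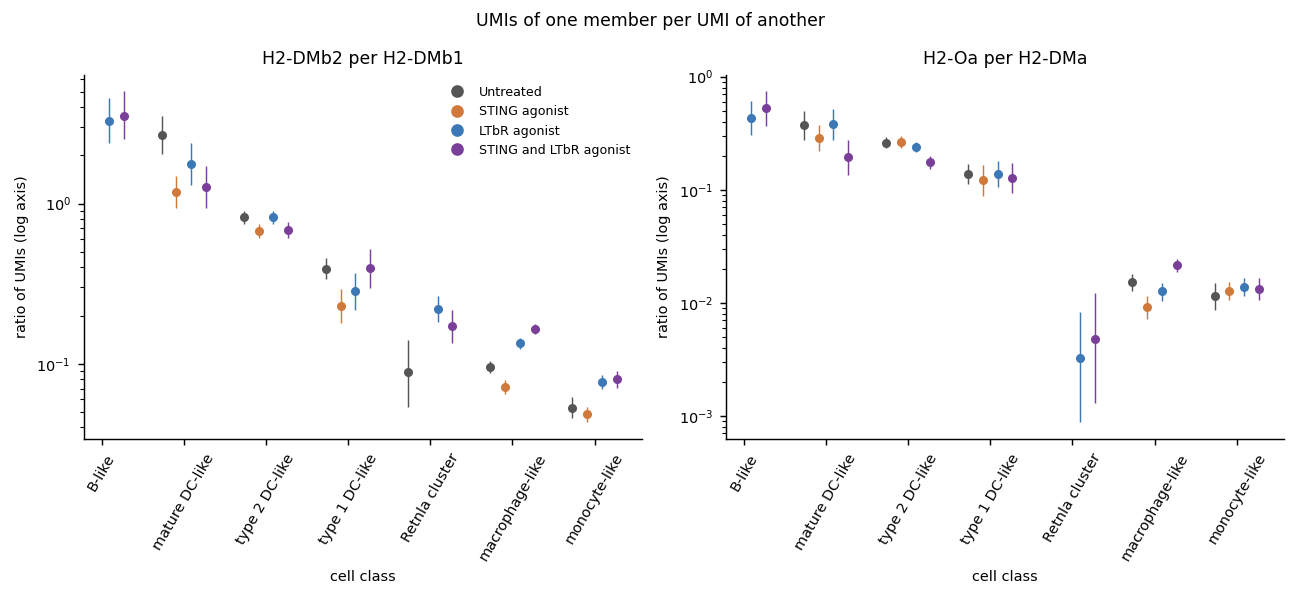
UMIs of H2-DMb2 per UMI of H2-DMb1, and of H2-Oa per UMI of H2-DMa, on log axes, for 7 groups of cells in each library with exact binomial 95% intervals. In the LTβR agonist and combination libraries B-like cells lie highest of these in both panels, at 3.28 and 3.53 for H2-DMb2 per H2-DMb1. Monocyte-like cells lie lowest in the left panel and the unnamed Retnla cluster in the right one, and plasmacytoid DC-like cells are not drawn.

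Cd74 per H2-Aa was nearly constant in macrophage-like cells, at 2.54, 2.59, 2.57 and 2.56, although both genes differed between the libraries. It was 2.09, 1.93, 2.14 and 2.23 in type 2 DC-like cells and 3.41 and 3.16 in B-like cells. Plasma-like cells stood apart at 7.97 (7.11 to 8.96), 73.4 (55.1 to 100.1), 9.08 (8.60 to 9.59) and 5.79 (5.57 to 6.02). Without the subclusters of 216 and 13 cells that hold macrophage markers, the ratio in plasma-like cells was higher still, at 41, 131, 37.6 and 19.3. Ciita per H2-Aa was lowest in the STING agonist library in macrophage-like cells, at 0.0284, 0.0181, 0.0292 and 0.0256, in monocyte-like cells, at 0.0431, 0.0245, 0.0426 and 0.0405, and in type 2 DC-like cells, at 0.0686, 0.0495, 0.0622 and 0.0581. In all 3 classes the coactivator was therefore lower relative to its target in that library, while the target itself was lower than in untreated in the first 2.

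Cell by cell, the summed share of a cell's UMIs that came from the 9 members had a median of 2.63, 1.39, 2.64 and 3.83% in macrophage-like cells. Cells under 1% made up 24.1, 43.8, 26.1 and 16.2% of them, and cells above 5% made up 15.2, 12.3, 17.6 and 32.2%. The STING agonist library thus had the most macrophage-like cells with little class II transcript, and the combination library the most with much. In monocyte-like cells the medians were 2.84, 2.33, 2.28 and 3.24%, and in type 2 DC-like cells 4.52, 4.88, 4.67 and 4.84%. Mature DC-like cells were spread widely, with medians of 0.488, 0.853, 0.606 and 1.85% and 63, 54.4, 61.4 and 35.8% of cells under 1%. With each macrophage-like cell thinned to 1000 UMIs, which left out 141, 314, 297 and 417 shallower cells, 14.8, 7.83, 15 and 16.4% had a Ciita UMI and 84.5, 68.1, 83.3 and 89.6% had one of H2-Aa. Unthinned, the shares for Ciita were 47.1, 26.4, 40.9 and 41%, with median depths of 7986, 6729, 5060.5 and 3606 UMIs. In T-like cells thinned alike, without 88, 44, 186 and 374 cells, 6.65, 5.23, 6.52 and 14.8% had an H2-Aa UMI, most often in the combination library, at unthinned medians of 3395, 3755, 2880 and 1666 UMIs. Whether these UMIs came from free RNA or from mixed droplets was not tested.

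**Figure D5:**
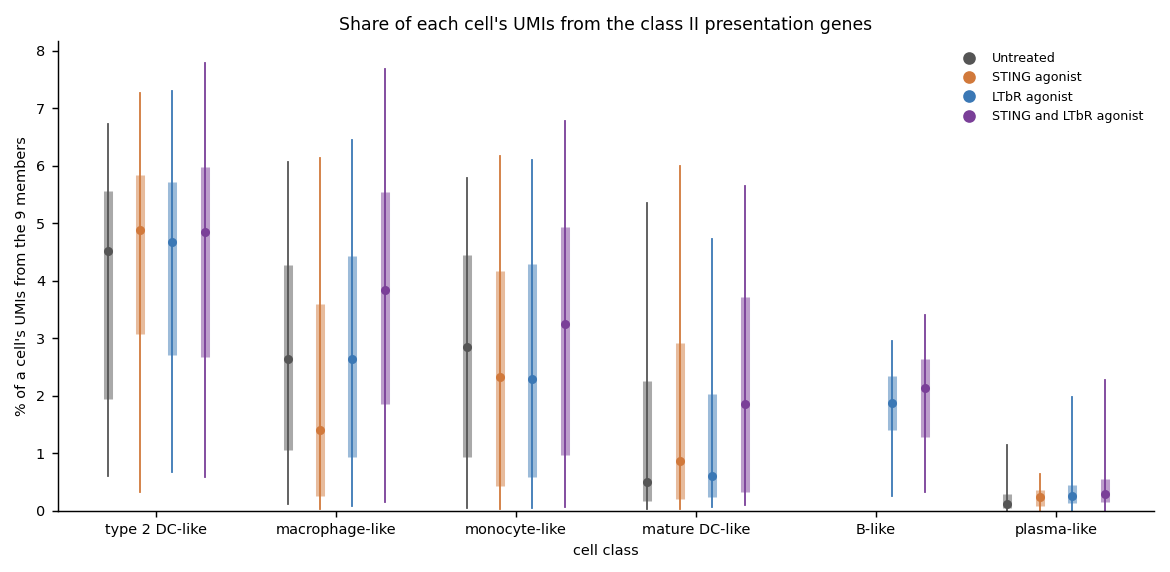
Share of each cell's UMIs that came from the 9 members, in percent, for type 2 DC-like, macrophage-like, monocyte-like, mature DC-like, B-like and plasma-like cells of each library. Dots are medians, thick bars run between the quartiles and thin lines from the 5th to the 95th percentile. The median of macrophage-like cells is lowest in the STING agonist library (1.39%) and highest in the combination library (3.83%), and that of type 2 DC-like cells lies between 4.52% and 4.88%.

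Macrophage-like and monocyte-like cells together supplied most of the H2-Aa transcript in the sorted leukocytes. Macrophage-like cells gave 53, 38.3, 40.5 and 49.7% of H2-Aa UMIs and monocyte-like cells 25, 42, 36.1 and 29.2%, against 9.81, 7.62, 9.94 and 7.64% from type 2 DC-like cells. H2-Oa had another source. Type 2 DC-like cells gave 44.5, 44.3, 46.5 and 33.7% of its UMIs from 3.63, 1.51, 3.10 and 3.19% of leukocytes, and 36.6, 35.9, 33.6 and 22.7% of those of H2-DMb2. B-like cells gave 0.240, 0.234, 6.52 and 6.91% of H2-DMb2 UMIs, and were few in the first 2 libraries. These shares rest on the sort and on how many cells of each class were captured.

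Other genes of the pathway were read from a list of 44. It held transcription factors and chromatin enzymes, interferon-gamma signalling to Ciita, uptake and proteolysis, surface turnover and the remaining class II family genes. The turnover group also held Mif, Cd44, Cxcr4 and Cxcr2, whose calls are not read as changes in class II turnover. In macrophage-like cells 3 were higher and 1 lower of 41 tested in STING agonist against untreated: Ctsl (a lysosomal protease, ratio 1.65), Kdm6b (a histone demethylase, 1.57) and Cd44 (an adhesion receptor, 1.96), with H2-Ob lower at 0.655. Of all genes tested in that comparison 4.17% were higher and 6.65% lower, so the list's counts lie near the shares of all genes. The level of H2-Ob without the cells named DC-like at doubled resolution was not examined. Of 42 tested in combination against STING agonist, Irf4 (a transcription factor of activated myeloid and lymphoid cells, 4.28) and H2-Ob (2.11) were higher, and the proteases Ctsl (0.593) and Ctsb (0.635) lower, where 5.54% and 3.02% of all genes were. Against untreated, Irf4 (1.66) and Cd44 (1.53) were higher with the LTβR agonist (3.02% of all genes), and Irf4 (1.86) and Kdm6b (1.76) with the combination, out of 42 tested each time. No gene of the list passed in combination against LTβR agonist, where 2.98% of all genes did.

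In monocyte-like cells Ctsl was again higher with the STING agonist than in untreated, at 2.02, with Kdm6b (1.68) and Cd44 (1.54), while Irf2, an interferon regulatory factor, was lower at 0.665. These were 3 higher and 1 lower of 39 tested, beside 4.61% and 7.47% of all genes. Ctsl was the single gene of the list past 1.5-fold in combination against STING agonist, at 0.435, out of 40 tested (2.72% of all genes were lower). Kdm6b and Socs3, an inhibitor of cytokine signalling, were higher than in untreated with the LTβR agonist (1.66 and 1.69) and with the combination (1.72 and 1.64), out of 39 and 38 tested, where 2.66% and 2.6% of all genes were higher. Over all DC-like cells, 0 of the 9 members passed in any comparison, beside 7.15% of all genes in combination against STING agonist and 2.46% in combination against LTβR agonist, and 4, 3 and 3 of the 38 genes of the list tested were higher than in untreated with the STING agonist, the LTβR agonist and the combination. Kdm6b and Cd44 were among them each time, with STING agonist ratios of 1.77 and 1.91. The others were Irf4 (1.57) and Cxcr4 (2.02) with the STING agonist, and Socs3 with the LTβR agonist (1.73) and the combination (2.08). In combination against STING agonist Socs1 (0.611), Ctsl (0.594) and Cxcr4 (0.505) were lower, as 3.41% of all genes were. Of all genes tested in DC-like cells, 3.85%, 4.28% and 4.58% were higher in those comparisons. H2-Eb2, a further class II beta chain gene that was singled out after its values were seen, was 87.2, 111, 119 and 152 CPM in mature DC-like and 12.6, 11.8, 10.8 and 17.1 CPM in type 2 DC-like cells, against the order of the 9 members.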

How the data were processed

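Live CD45+ cells from pooled tumours were profiled in 4 droplet libraries, 1 per treatment group, with groups taken from the sample labels. The deposited files hold raw UMI counts per gene and cell from the authors' Cell Ranger runs. The file headers name version 8.0.1, whereas the study's methods and the submitters' processing notes name 7.1.0 with mm10, and the labels and methods name different versions of the 5′ kit, so the annotation behind the counts is uncertain. Reads that map to several genes are not counted, which lowers genes with near-identical copies. The full genotype of the tumour line is not reported here. The files held 0 columns of other samples.

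Cells with 300 to 5000 genes and at most 6% mitochondrial UMIs were kept, after the study's methods. Doublets were scored with scrublet in scanpy 1.11.5. Its automatic threshold marked at most 1 cell a library and was taken to have failed, so the top-scored 0.4% per 1000 cells were removed instead (305, 949, 857 and 1066 cells). All libraries were clustered together without integration, without the 9 members, H2-Ob and H2-Eb2, and without immunoglobulin, T cell receptor variable, ribosomal and mitochondrial genes (2000 variable genes, 30 components, 20 neighbours, leidenalg 0.10.2 at resolution 1, 35 clusters). A cluster took the name of the list with the largest share of markers 2-fold above the rest and in 10% of its cells, given at least 3 of them. It stayed unnamed where its 10 leading genes held more markers of another list, or, with no own marker among them, where its median UMI count was below that of its libraries divided by 3. A DC name also required Flt3 2-fold above, a condition added after the clusters were seen, and B lineage cells were clustered again into 11 subclusters. Classes with under 30 cells in a library were not described.

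UMIs were summed per class and library and divided by the class total. Exact Poisson intervals were used for levels, exact binomial (Clopper-Pearson) intervals for shares, and binomial intervals converted to ratios for comparisons, all at 95%, with scipy 1.17.1, numpy 2.4.6 and pandas 2.3.3. They cover counting error only, and differences between animals or sorts could not be measured. A count of 0 was bounded by 3 UMIs. Interval coverage was tested on simulated data with 200 changed genes. All 9 members were described in every class. Pathway genes were named when past 1.5-fold with an interval off 1. The members, gene lists and tests were chosen with earlier results of these data known. Alternatives covered doublets, depth, naming, resolution, filters, scaling, background and the mix of clusters.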

Additional observations from a re-analysis of the deposited data

Results flagged for a closer look

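H2-Ab1 and H2-Eb1 stood in opposite directions in STING agonist against untreated in different classes, past 1.5-fold in each. H2-Ab1 was higher in mature DC-like cells, at 0.73 on the log2 scale, and lower in plasma-like cells, at -1.70, which are 2.43 apart. H2-Eb1 was at 0.63 and -2.43, which are 3.06 apart. With 1 library per group the difference between the classes was not tested, and the plasma-like cells of the STING agonist library numbered 60. Both sides moved with the macrophage markers. Without the plasma-like subclusters that hold those markers, H2-Ab1 was -0.25 and H2-Eb1 -0.37 on the log2 scale in plasma-like cells. Without cells holding them, H2-Ab1 was 0.53 and H2-Eb1 0.45 in mature DC-like cells, so that none of these values was past 1.5-fold any longer.

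Cells in clusters that carried no class name, other than one led by Retnla, were in no comparison of the report (902, 1392, 1090 and 1801 cells in the untreated, STING agonist, LTβR agonist and combination libraries). In them 6 of 7 members tested were past 1.5-fold higher in LTβR agonist than in untreated (13.5% of all genes tested were), 5 in STING agonist (19.1%) and 5 in combination (6.05%). H2-Aa was 1264, 2174, 2469 and 2433 CPM and Cd74 2877, 5005, 5669.6 and 5111 CPM. Ciita was past 1.5-fold lower in STING agonist than in untreated (22.8% of all genes were), at 295, 115, 255 and 280.5 CPM. The macrophage markers summed to 5185, 6966, 5793 and 4962 CPM in these cells. The pool also mixed unlike clusters in unlike shares. One led by Gm13067 and Stard13 held 462, 279, 221 and 508 of the cells, and one with Cadm4 and Clec1a among its leading genes 22, 164, 99 and 97. The part of the markers and of this mix in the result was not tested.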

How the results depend on the processing

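No paired analysis was possible because each group had 1 library, and no replicate could be left out. Over 305 ratios of members between libraries, 67 were past 1.5-fold. All 67 stayed so without immunoglobulin genes in the totals and with stricter limits (at least 500 genes, at most 3% mitochondrial UMIs). Dropping the minimum of UMIs cannot remove a call. Of those that could be computed, 54 of 67 stayed past 1.5-fold after thinning to 1000 UMIs, 50 of 67 with each cell weighted equally, 63 of 67 centred on the median of all genes, 57 of 67 with matched clusters, 56 of 59 with the T-like level subtracted, 44 of 57 without doublet removal, 57 of 63 at doubled resolution and 39 of 63 with each cell named by its own markers. For the counts that move below, the cause was not tested. In STING agonist against untreated, depth left 4 of 9 members to test in plasmacytoid DC-like and in plasma-like cells.

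The following counts of members past 1.5-fold moved by more than 1.5 times. In macrophage-like cells, STING agonist against untreated (3) gave 1 without doublet removal, 1 at doubled resolution and 1 with cells named by own markers. Combination against untreated (2) gave 1 under each of these and 1 with the T-like level subtracted. Combination against LTβR agonist (2) gave 0 without doublet removal, and 1 at doubled resolution, with own markers, with the T-like level subtracted and with matched clusters. In monocyte-like cells, STING agonist against untreated (1) gave 2 with cells weighted equally, combination against untreated (0) gave 1 after thinning, and combination against STING agonist (2) gave 1 at doubled resolution. In all DC-like cells, counts of 0 became 1 for STING agonist against untreated with own markers, 1 for combination against untreated after thinning, and 1 for combination against STING agonist with cells weighted equally.

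In mature DC-like cells, STING agonist against untreated (4) gave 1 without doublet removal, 1 after thinning and 1 with cells weighted equally. LTβR agonist against untreated (2) gave 0 without doublet removal and 1 with cells weighted equally. Combination against untreated (4) gave 2 at doubled resolution, combination against STING agonist (0) gave 1 after thinning and 1 with cells weighted equally, and combination against LTβR agonist (5) gave 3 without doublet removal. In plasma-like cells, combination against LTβR agonist (5) gave 2 without doublet removal, and 3 after thinning, with cells weighted equally, centred or with matched clusters.

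Further alternatives were chosen after seeing the data. With clusters at doubled resolution given matched shares, 6 of 18 ratios past 1.5-fold stayed so. In macrophage-like cells the counts became 0 for STING agonist against untreated, 1 for combination against untreated, 4 for combination against STING agonist (8) and 1 for combination against LTβR agonist, and in monocyte-like cells 0 for STING agonist against untreated and 0 for combination against STING agonist. Without the low-depth macrophage-like cluster, 15 of 15 stayed. Without the cluster of cell division genes 12 of 15 stayed, with counts of 1 for STING agonist against untreated and 1 for combination against LTβR agonist. Without macrophage-like cells named DC-like at doubled resolution 13 of 15 stayed, with 1 for STING agonist against untreated. Without cells that hold macrophage markers, 21 of 38 stayed. Here the minimum of 200 UMIs was asked of the full class. Mature DC-like counts became 1 for STING agonist against untreated, 0 for combination against untreated, 1 for combination against STING agonist and 0 for combination against LTβR agonist. The counts of 1 were H2-DMb1, and became 0 with 200 UMIs asked of the remaining cells. Plasmacytoid DC-like LTβR agonist against untreated went from 2 to 1, and type 2 DC-like combination against STING agonist from 0 to 1. In plasma-like cells LTβR agonist against untreated went from 0 to 1, STING agonist against untreated from 3 lower to 1 lower and 1 higher, and combination against untreated from 3 to 4. The count for all DC-like cells in combination against STING agonist became 1, and members above macrophage-like cells in every library went from 6 to 3. Without the plasma-like subclusters that hold macrophage markers, 10 of 15 stayed and the plasma-like count was 3, or 1 with 200 UMIs asked of the remaining cells. With the Retnla cluster counted as type 2 DC-like, 3 ratios came past 1.5-fold, H2-Oa and H2-DMb2 in the combination.

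Of the ratios past 1.5-fold, 4 reversed direction, all with each cell named by its own markers. Over all ratios, the direction was kept in 245 of 296 with own markers, 270 of 305 after thinning and 73 of 87 with clusters at doubled resolution matched. In plasmacytoid DC-like cells, LTβR agonist against untreated became 0.16 for H2-Aa and 0.19 for Cd74 on the log2 scale. In plasma-like cells, STING agonist against untreated became 0.28 for H2-Aa and 0.17 for H2-Ab1.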

Other observations

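An unnamed cluster led by Retnla, a gene of alternatively activated macrophages, held 41, 18, 213 and 261 cells in the untreated, STING agonist, LTβR agonist and combination libraries, with macrophage markers summing to 8268, 6932 and 6953 CPM in the 3 libraries with at least 30 such cells. H2-Aa was 7544, 7849 and 7931 CPM and Cd74 16173, 20430.2 and 20819 CPM in those libraries. Of the 9 members 8 were above macrophage-like cells in all 3, and H2-Oa was below, with 1, 4 and 4 UMIs.

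Across 42 points, each a class in a library with at least 30 cells, and 10429 genes with at least 1000 UMIs, the genes whose log2(CPM + 1) followed the mean of the members most closely were Ifi30 (Pearson r = 0.964), Plekho1 (0.956), Tbc1d9 (0.944), Cd83 (0.938) and Gm6377 (0.926). Ifi30 codes for a reductase that prepares antigens in lysosomes, and Cd83 for a surface protein of mature DCs. Across the 30 points of antigen-presenting classes alone the closest were Rin3 (0.947), Sh3bgrl3 (0.940), Vasp (0.940), Btf3 (0.938) and Hsp90ab1 (0.931), with 0 genes shared between the lists. Points of one library share its depth, and these values are a description.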
